A study of Mus musculus with 12 samples.

Results

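The NADPH oxidase of phagocytes was followed through 6 genes, Cybb, Cyba, Ncf1, Ncf4, Rac2 and Hvcn1, taken as a list of gene symbols for their roles in the complex. All 6 are among the 31054 features listed for the libraries, and all 6 passed the filter on low counts in the brain libraries of the treated mice. The data were single-cell RNA counts from 12 libraries, each 1 sort from 1 mouse. Of these, 8 came from 4 treated C57BL/6J mice, 1 female and 1 male dosed intravenously (i.v.) and 1 female and 1 male dosed into the lateral ventricle (i.c.v.). Every treated mouse had received busulfan, which empties the marrow niche, then hematopoietic stem and progenitor cells (HSPCs) from male donors that carried a lentiviral GFP cassette, and then a supporting i.v. dose of marrow without the vector. From each brain, CD45+ CD11b+ CX3CR1+ cells were sorted into a GFP+ library, the microglia-like cells (MLCs) of donor origin, and a GFP- library, taken as endogenous microglia, which can also hold donor cells that lack the vector. Route and sex therefore have 1 mouse for each combination. The labels give the treated mice as 22 to 28 weeks old, whereas the series text places the sort 12 to 13 months after dosing, and both are given here because they cannot be reconciled from the sources used. The other 4 libraries came from a treatment-naive C57BL/6J animal, labelled 8 to 12 weeks old, that received neither busulfan nor cells, with 1 library each for microglia, blood leukocytes, astrocytes and a neuron sort.

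The oxidase moves electrons from NADPH across a membrane onto oxygen and so makes superoxide, the first of the reactive oxygen species used by phagocytes against microbes. Cybb encodes gp91phox, the catalytic chain, and Cyba encodes p22phox, the partner chain that anchors and stabilises it in the membrane. Ncf1 (p47phox, the organiser) and Ncf4 (p40phox, which binds a phosphoinositide of the phagosome) stay in the cytosol until activation, when they move to the membrane together with the GTPase Rac2. Hvcn1 encodes the voltage-gated proton channel that returns the charge lost by electron transfer. In the brain the complex is known mainly from microglia and other macrophages, and loss of gp91phox, p22phox, p47phox or p40phox causes chronic granulomatous disease.

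In the GRCm38 build Ncf4 and Rac2 are both on chromosome 15, and Ncf1 and Hvcn1 both on chromosome 5. Cybb is on the X chromosome (9435252 to 9487771, minus strand), Cyba on chromosome 8 (122424776 to 122432930, minus strand) and Ncf1 on chromosome 5 (134220053 to 134229625, minus strand). Ncf4 spans 78244801 to 78262580 on the plus strand of chromosome 15, Rac2 spans 78559167 to 78572783 on its minus strand, and Hvcn1 spans 122206804 to 122242297 on the plus strand of chromosome 5. Each is annotated as protein coding. Cyba overlaps Gm20388, Ncf1 overlaps Gtf2ird2 and Hvcn1 overlaps Tctn1, each on the opposite strand, which the strand-aware 3′ chemistry keeps apart.

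Sequence for 3 of the 6 genes was matched among RefSeq promoters (GRCm38.p6), and the 250 bases before the RefSeq start of each are shown, 5′ to 3′ on the coding strand, because the 2 membrane chains and p47phox differ in the short motifs found there. Capitals mark matches, on either strand, to an IRF pair (GAAA, any 2 bases, then GAAA, or its reverse complement), a CCAAT box (CCAAT, reverse ATTGG) or a GC box (GGGCGG, reverse CCGCCC). The windows are chrX:9469325-9469574 for Cybb, chr8:122432941-122433190 for Cyba and chr5:134229626-134229875 for Ncf1, all on the minus strand. The Cybb window lies inside the gene span given above, because that span includes a transcript that begins farther upstream.
Cybb: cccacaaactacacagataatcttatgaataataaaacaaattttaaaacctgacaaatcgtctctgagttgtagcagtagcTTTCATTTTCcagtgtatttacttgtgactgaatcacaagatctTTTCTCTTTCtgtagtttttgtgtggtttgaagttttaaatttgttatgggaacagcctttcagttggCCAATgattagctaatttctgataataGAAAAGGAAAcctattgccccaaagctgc
Cyba: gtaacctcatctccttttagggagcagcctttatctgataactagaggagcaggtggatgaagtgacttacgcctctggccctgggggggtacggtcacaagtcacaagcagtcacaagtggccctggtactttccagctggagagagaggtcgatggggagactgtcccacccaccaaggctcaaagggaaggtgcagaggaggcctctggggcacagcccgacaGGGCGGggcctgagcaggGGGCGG
Ncf1: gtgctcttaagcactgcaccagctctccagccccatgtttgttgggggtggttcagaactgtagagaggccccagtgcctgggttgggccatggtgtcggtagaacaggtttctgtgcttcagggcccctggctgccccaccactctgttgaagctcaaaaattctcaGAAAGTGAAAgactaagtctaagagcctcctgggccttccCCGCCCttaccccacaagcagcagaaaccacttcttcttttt
The Cybb window, with 34% G or C, held 3 IRF pairs and 1 CCAAT box, and the Cyba window, with 60% G or C, held 2 GC boxes. The Ncf1 window held 1 IRF pair and 1 GC box. Among 32817 promoters of the same length, 2.97% held an IRF pair, 33.8% a CCAAT box and 32.7% a GC box. A core motif of PU.1 (GAGGAA, in 23.3% of promoters) and an AP-1 motif (TGACTCA, in 4.46%) were also searched on both strands and matched nowhere in the 3 windows. No match overlapped another, and a match is a description of letters, not a binding site.

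After a filter on barcodes (at least 200 genes and at most 10% mitochondrial counts) the treated libraries kept 2266 to 4555 cells with 4970758 to 16514669 unique molecular identifiers (UMIs, each counting 1 captured RNA molecule), and a median of 842 to 3499 UMIs per cell. The naive libraries kept 341 to 1274 cells, and naive microglia were shallow, with a median of 425 UMIs. Markers fitted the microglial label better in the GFP- than in the GFP+ sort, since cells with at least 3 of 9 microglial markers made up 91.4 to 96.2% of GFP- and 51.8 to 68.5% of GFP+ libraries. Cells with at least 3 of 7 markers of border macrophages, which line the meninges and vessels, made up 2.84 to 7.97% and 20.8 to 27.1%. The naive neuron sort went against its label, since 94.8% of its cells carried at least 3 of 7 oligodendrocyte markers. Pairs of treated libraries shared at most 8 cell barcodes. Levels are given as CPM, the UMIs of a gene after scaling the kept UMIs of its library to a total of 1000000. In 3′ counting a transcript gives 1 tag whatever its length, so no division by length was made.

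**Figure D1:**
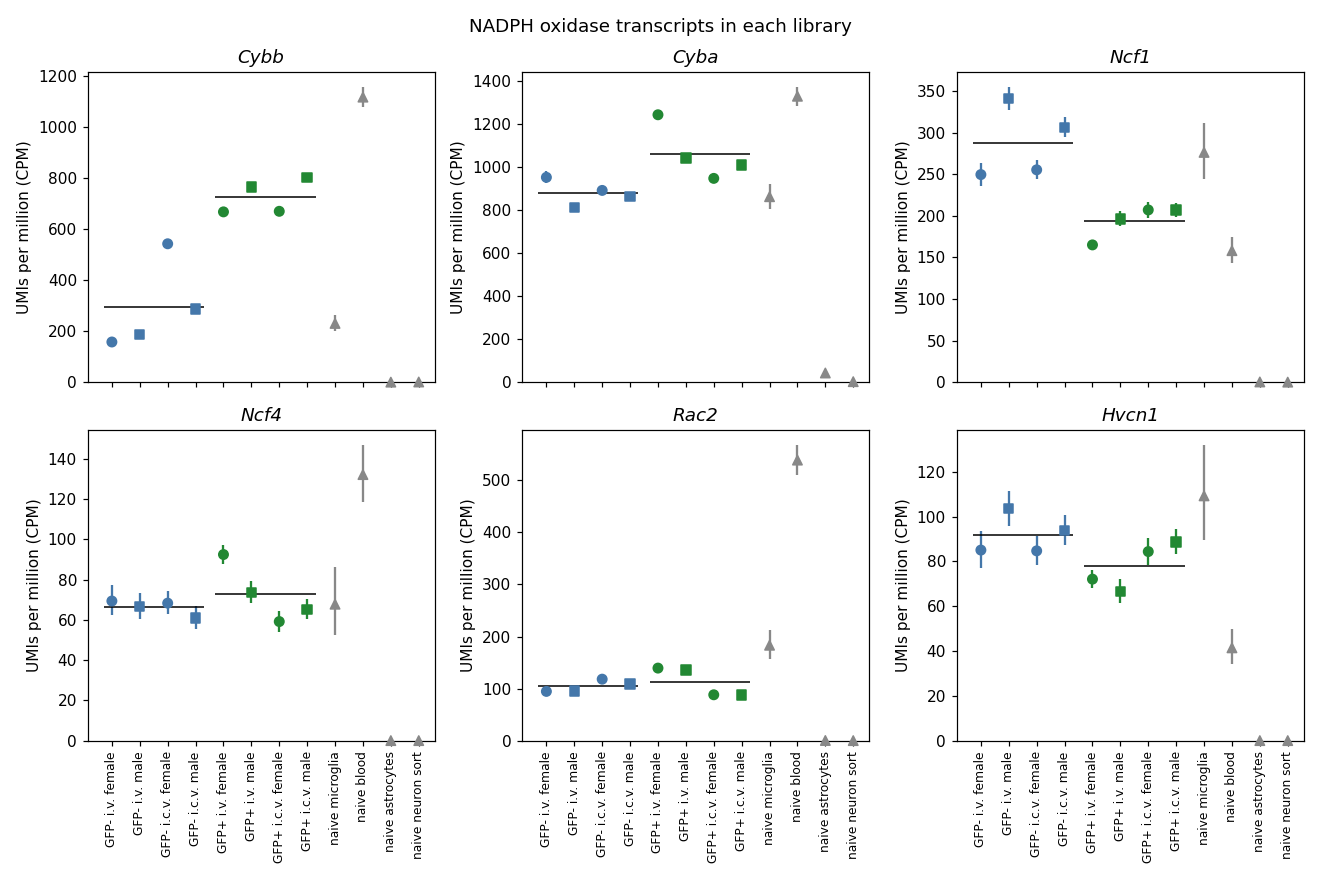
CPM of the 6 genes in each of the 12 libraries (circles, female mice; squares, male mice; triangles, naive libraries of 1 animal each), with the exact 95% Poisson interval of the count as a vertical line and the mean of each 4-library sort as a horizontal line. All 4 GFP+ libraries lie above all 4 GFP- libraries for Cybb and below them for Ncf1, and astrocytes and the neuron sort lie at or near 0.

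Cybb, the catalytic chain, separated the sorts. It stood at 666, 763, 669 and 802 CPM in the GFP+ libraries of the i.v. female, i.v. male, i.c.v. female and i.c.v. male, against 157, 186, 542 and 286 CPM in the GFP- libraries of the same mice. The groups did not overlap, and the widest spread was among GFP- libraries, where the i.c.v. female was the highest. Over libraries the means were 725 ± 68.2 CPM in GFP+ and 293 ± 175 CPM in GFP- cells (SD, n = 4 each). In edgeR's quasi-likelihood test over 12540 genes Cybb was 1.56 ± 0.38 higher on the log2 scale (estimate ± SE) with a Benjamini-Hochberg adjusted p of 0.0149, and it was higher in 4 of 4 mice. In a sum over a library, more cells with a transcript and more of it per cell cannot be told apart. The CPM ratio within a mouse was 4.24 and 4.10 in the i.v. female and male, 2.80 in the i.c.v. male and 1.23 in the i.c.v. female. Across all genes 30.7% were called in this comparison, 15.4% as higher in GFP+ cells and 15.3% as lower, and 2 of the 6 oxidase genes were called, both as higher. In CPM, GFP+ libraries lay entirely above GFP- libraries for 6.07% of genes and entirely below for 31.7% (37.7% in all), and the same held for 1 and 1 of the 6 oxidase genes.

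Cyba, the partner chain, was the other gene that rose, by less. The GFP+ libraries held 1244, 1042, 948 and 1010 CPM and the GFP- libraries 953, 812, 892 and 865 CPM, in the order of mice used above. The ranges touched, because the i.c.v. female's GFP+ library was just under the i.v. female's GFP- library, but GFP+ exceeded GFP- in 4 of 4 mice. The fit gave 0.55 ± 0.14 on the log2 scale (edgeR, adjusted p = 0.0181). This call depended on the scaling. edgeR's TMM factors, which align the bulk of genes between libraries, moved GFP+ values up relative to plain library size, where all genes tested had a median log2 difference of -0.28 (763 called as higher and 3891 as lower, against 1930 and 1923 with TMM) and Cyba had 0.27 with an adjusted p of 0.110 in the same test. The call was also lost when each cell was thinned to 500 UMIs (0.18, adjusted p = 0.640), when cells with border macrophage markers were left out (0.51, adjusted p = 0.105) and when the i.v. male's GFP- library was dropped (0.51, adjusted p = 0.0566).

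Ncf1, the organiser p47phox, ran the other way in CPM. Its GFP+ libraries held 165, 196, 207 and 207 CPM and its GFP- libraries 250, 341, 255 and 307 CPM, so that every GFP+ library was below every GFP- library, as for 31.7% of all genes. The TMM-scaled fit gave -0.29 ± 0.12 (edgeR, adjusted p = 0.0961), which did not pass the threshold, whereas the fit on plain library size gave -0.57 with an adjusted p of 0.011. Relative to the median shift of -0.28 on that scale the difference was of the same size in both fits.

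The remaining cytosolic parts and the channel did not pass the test between sorts. Ncf4, the p40phox gene, stood at 92.5, 73.8, 59.2 and 65.3 CPM in GFP+ and 69.4, 66.8, 68.3 and 60.9 CPM in GFP- libraries, with overlapping ranges and a fitted difference of 0.42 ± 0.16 (edgeR, adjusted p = 0.0724). Rac2, the hematopoietic GTPase of the complex, gave 0.40 ± 0.21 (adjusted p = 0.176 in the same test), with GFP+ above GFP- in both i.v. mice and below in both i.c.v. mice. Hvcn1, the proton channel gene, stood at 72.1, 66.7, 84.4 and 88.8 CPM in GFP+ and 85.1, 104, 84.8 and 93.9 CPM in GFP- libraries, and its fitted difference of 0.04 ± 0.10 (edgeR, adjusted p = 0.788) turned to -0.24 on plain library size. Neither of these values differed from 0 beyond the spread between libraries.

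**Figure D2:**
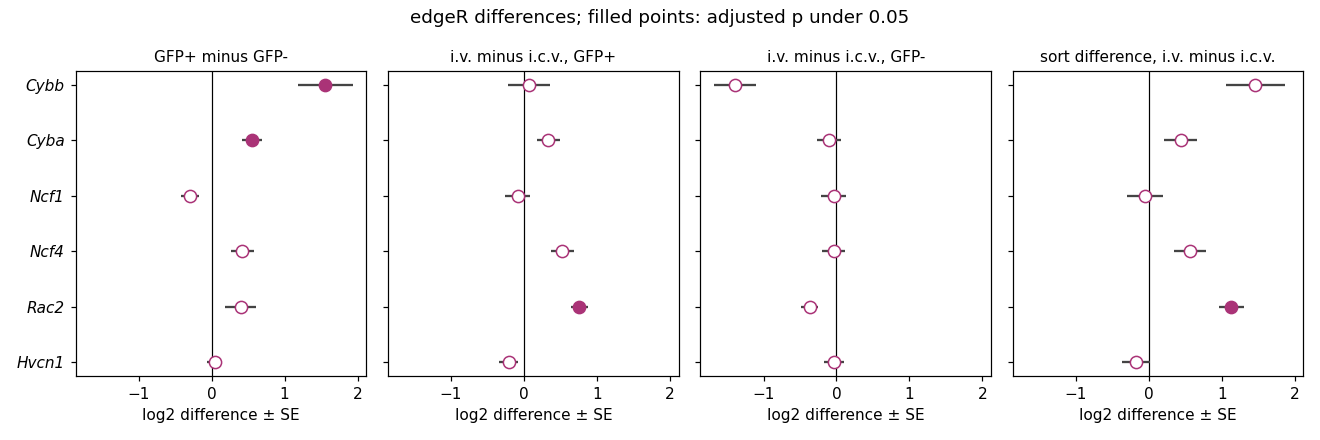
Fitted log2 differences (x axis, ± SE) of the 6 genes in 4 comparisons over the 8 treated libraries: GFP+ minus GFP-, i.v. minus i.c.v. within GFP+, i.v. minus i.c.v. within GFP-, and the sort difference of i.v. mice minus that of i.c.v. mice. Filled points passed an adjusted p of 0.05, which holds for Cybb and Cyba between sorts and for Rac2 between routes in GFP+ cells and in the interaction.

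Counted per cell, more GFP+ than GFP- cells held Cybb RNA. With every cell thinned to 500 UMIs, which left out no treated cell, 27.9, 33.4, 28.6 and 35.7% of GFP+ cells held at least 1 Cybb UMI, against 4.93, 5.86, 17.2 and 8.93% of GFP- cells. The means were 31.4 ± 3.76% and 9.22 ± 5.56% (SD, n = 4 each, two-sided exact permutation p = 0.0286, the smallest that 4 against 4 libraries can give). This test treats the libraries as independent and ignores that each mouse gave 1 library of each sort. At the cells' own depth the means were 63.3% and 16.9%. In the other brain sorts, 0 of 1146 astrocytes at 500 UMIs (own median 3395 UMIs) held a Cybb UMI, which by a floor of 3 counts allows a share of up to 0.262%, and 0 of 482 cells of the neuron sort (own median 6937 UMIs) did, which allows up to 0.622%. For Cyba the astrocyte share was 1.75%, and for the other 4 genes it was between 0 and 0.0873%. Of the other 5 genes none passed 0.05 at 500 UMIs in the same exact permutation test. Ncf1 was found in 10.97 ± 1.10% of GFP+ and 13.9 ± 1.85% of GFP- cells (SD, n = 4 each, exact permutation p = 0.0571), and Cyba in 27.1 ± 5.90% and 27.2 ± 1.34% (exact permutation p = 0.971). At 1000 UMIs, for which 39.7 to 76.6% of the cells of a library were deep enough, Cyba (53.7% against 43.6%) and Ncf1 (17.7% against 24.96%) also had sorts that did not overlap (exact permutation p = 0.0286 each).

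A cell with Cybb RNA was not clearly a cell with more Cyba RNA at equal depth in the GFP+ sort. At 1000 UMIs, 46.8 to 63.0% of GFP+ cells with Cybb also held Cyba, and 50.5 to 64.2% of those without Cybb did, with the Cybb-bearing cells the lower of the pair in all 4 libraries. In the GFP- sort the order was the opposite in all 4 libraries, with 49.3 to 53.8% of cells with Cybb and 40.6 to 44.8% of cells without Cybb holding Cyba. Both chains were found together in 19.3 to 28.3% of GFP+ and 3.82 to 13.1% of GFP- cells. The GFP+ order depended on depth. At 500 UMIs the i.v. female's GFP+ library went the other way, with Cyba in 36.1% of cells with Cybb and 35.2% of those without. The i.v. male kept the order (21.5 and 27.0%), and the i.c.v. pairs were close (21.1 and 21.8% in the female, 26.2 and 26.5% in the male). Cells of 1 library are not replicates, so these are descriptions over 4 libraries a sort.

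The make-up of the oxidase transcript pool is a measure that no scaling between libraries can move. Cybb made up 32.4 ± 3.16% of the UMIs of the 6 genes in GFP+ libraries and 16.4 ± 8.03% in GFP- libraries (SD, n = 4 each, two-sided exact permutation p = 0.0286). Ncf1 made up 8.70 ± 1.32% and 16.9 ± 3.49%, and Hvcn1 3.50 ± 0.61% and 5.38 ± 0.87%, each without overlap (exact permutation p = 0.0286, n = 4 each). Cyba (47.2% and 51.4%), Ncf4 (3.22% and 3.88%) and Rac2 (4.99% and 6.04%) had sorts that overlapped (exact permutation p = 0.343, 0.114 and 0.114, unadjusted over the 6 genes). Since a larger Cybb share lowers the others, the shares were taken again without Cybb, a measure added after the values were seen. Cyba then made up 69.8 ± 1.94% of the UMIs in GFP+ and 61.5 ± 3.59% in GFP- libraries, and Ncf1 12.9 ± 2.34% and 20.2 ± 3.15% (exact permutation p = 0.0286 each, n = 4). Hvcn1 no longer separated (5.20% and 6.42%, exact permutation p = 0.171).

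**Figure D3:**
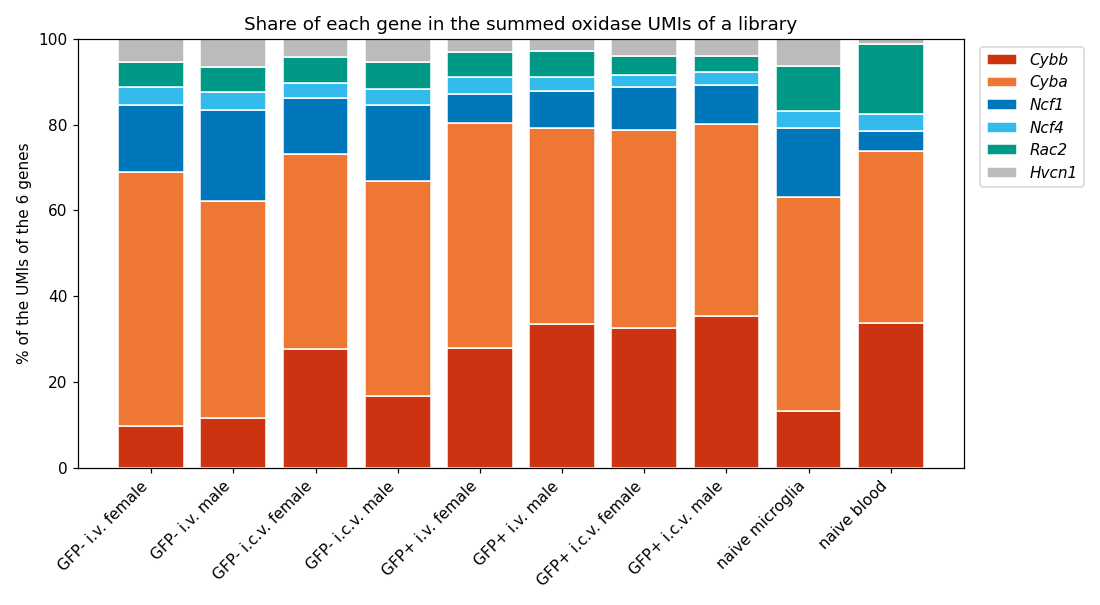
Share of each of the 6 genes in the summed oxidase UMIs of a library (stacked bars, y axis in %), for the 8 treated libraries and for the naive microglia and naive blood libraries. The Cybb part spans 28.0 to 35.5% in GFP+ libraries and 9.77 to 27.6% in GFP- libraries, with 33.6% in blood and 13.3% in naive microglia.

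The ratio of p47phox to p40phox transcripts, also chosen after the values were seen, was 2.78 ± 0.75 Ncf1 UMIs per Ncf4 UMI in GFP+ and 4.37 ± 0.81 in GFP- libraries (SD, n = 4 each, exact permutation p = 0.0286). Naive microglia had 4.07 and blood 1.20. For the membrane pair, Cybb UMIs per Cyba UMI were 0.692 ± 0.110 and 0.333 ± 0.195 (exact permutation p = 0.0571, n = 4 each), with 0.266 in naive microglia and 0.839 in blood. The i.c.v. female's GFP- library, at 0.607, exceeded the i.v. female's GFP+ library, at 0.536.

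The GFP- libraries differed among themselves mainly in Cybb. Its level was 157 and 186 CPM after i.v. and 542 and 286 CPM after i.c.v. dosing, against 230 CPM in naive microglia (95% Poisson interval 201 to 262). The i.v. minus i.c.v. difference was -1.39 ± 0.29 (edgeR, unadjusted p = 0.00122, adjusted p = 0.383). In this comparison edgeR called 0 of 12540 genes (0.0% of genes), 1063 had an unadjusted p under 0.05, and DESeq2 called 70, Cybb among them. The value moved with single libraries, being -0.83 when the i.c.v. female's GFP- library was dropped and -1.81 when the i.c.v. male's was, the latter with an adjusted p of 0.0319 (edgeR). The share of GFP- cells with at least 3 border macrophage markers moved with it, at 2.84 and 3.49% after i.v. and 7.97 and 5.09% after i.c.v. dosing. So did the summed level of 10 neutrophil markers, at 517 and 344 CPM after i.v. and 6053 and 1190 CPM after i.c.v. dosing (all 10 were detected in 3 of these libraries and 9 in the i.v. male), although only 0.0748 to 0.551% of the cells carried 3 of them. Cells with at least 3 neutrophil markers and of no other blood list held little Cybb. They had 205 and 135 CPM in the i.c.v. female and male GFP- libraries. These were 8 and 3 UMIs, of 4390 and 2226 Cybb UMIs in the whole libraries. The part of neutrophil RNA in the Cybb levels was not tested. Leaving out cells with at least 3 markers of blood cell types gave a Cybb difference of -1.38, and leaving out cells with border macrophage markers gave -1.63, neither of them called (edgeR, adjusted p = 0.409 and 0.448).

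Splitting each library by border macrophage markers showed how Cybb was distributed. In GFP- libraries, cells with at least 3 of these markers held 581, 651, 746 and 643 CPM of Cybb (i.v. female, i.v. male, i.c.v. female, i.c.v. male), beside 666 to 802 CPM in whole GFP+ libraries, and the rest held 121, 118, 473 and 220 CPM. In GFP+ libraries both parts were high, at 665, 748, 708 and 738 CPM in cells with the markers and 668, 773, 630 and 863 CPM in the rest. The unmarked GFP- cells of the i.c.v. female were thus also above those of the other mice, and the sort difference in Cybb was as large without the marker-bearing cells (1.92, edgeR adjusted p = 0.0214). Cells that reach 3 markers are deeper, with medians of 4329 to 8267 UMIs against 827 to 1946 in the rest, so the split is not one at equal depth.

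Ncf1 showed the reverse in the same split. GFP- cells with border macrophage markers held 117 to 168 CPM and the rest 261 to 368 CPM, whereas GFP+ cells held 176 to 179 CPM with the markers and 158 to 236 CPM without. Cyba was 1043 to 1209 CPM in marked and 766 to 931 CPM in unmarked GFP- cells. Hvcn1 was 60.4 to 73.9 CPM in marked and 86.1 to 110 CPM in unmarked GFP- cells. For Ncf4 the same ranges were 67.3 to 83.3 and 58.9 to 69.0 CPM, and for Rac2 91.7 to 105 and 93.7 to 126 CPM, both overlapping.

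**Figure D4:**
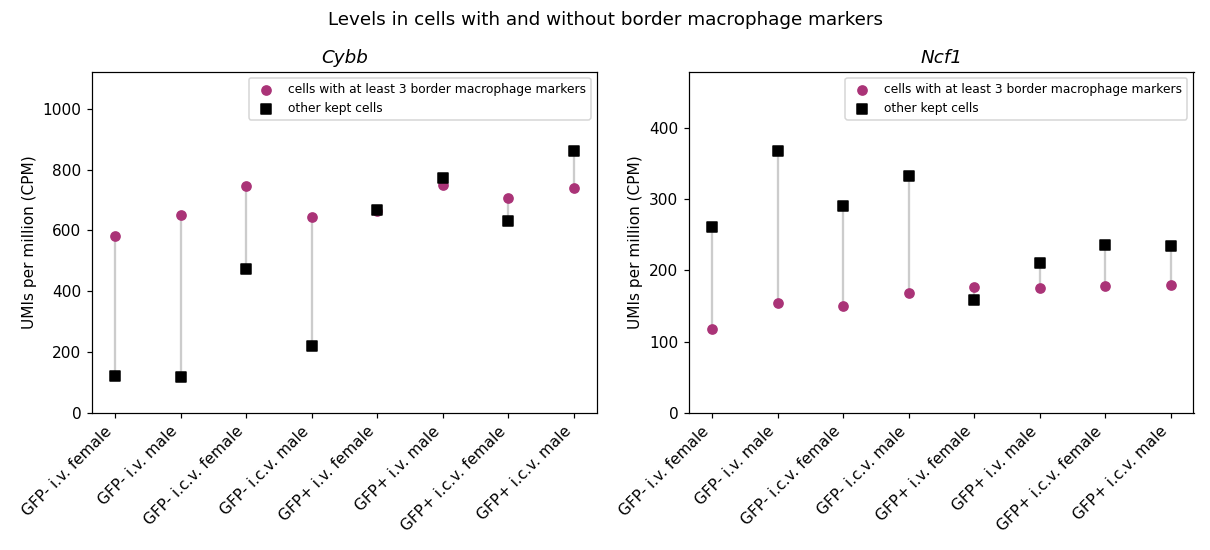
CPM of Cybb and Ncf1 in each treated library for cells with UMIs of at least 3 border macrophage markers (circles) and for the other kept cells (squares), joined by a line. In the 4 GFP- libraries the marked cells are higher for Cybb and lower for Ncf1, and in the 4 GFP+ libraries the Cybb values of both parts lie between 630 and 863 CPM.

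GFP- libraries could hold donor cells without the vector, and sex-linked transcripts bear on this because the HSPC donors were male. The paper describes every donor of this experiment as male, but does not give the sex of the supporting marrow separately. At 500 UMIs per cell, 1.47% of the Cybb-bearing GFP- cells of the i.c.v. female held a Y-linked UMI and 53.0% held Xist, against 0.554% and 56.8% of the cells without Cybb. In the i.v. female the values were 3.03% and 66.7% with Cybb and 0.315% and 78.5% without. For scale, 13.2 to 22.9% of cells held a Y-linked UMI in the 4 GFP+ libraries. In the GFP- libraries of the male hosts, Xist was held by 6.85% of cells with Cybb and 1.56% of those without in the i.c.v. male, and by 0.749% and 0.350% in the i.v. male. Both GFP+ libraries of male hosts had 0 cells with Xist. The part of cells of the other sex in the GFP- levels was not tested.

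Rac2 was the gene that differed by route. Its GFP+ libraries held 139 and 136 CPM after i.v. and 88.1 and 87.3 CPM after i.c.v. dosing, and its GFP- libraries held 94.6 and 95.3 CPM after i.v. and 118 and 109 CPM after i.c.v. dosing. The routes were thus ordered in opposite ways in the 2 sorts. In GFP+ cells the i.v. minus i.c.v. difference was 0.76 ± 0.12 (edgeR, adjusted p = 0.0145), in a comparison where 2.78% of genes were called, 2.56% as higher after i.v. dosing. In GFP- cells it was -0.37 ± 0.12 (edgeR, adjusted p = 0.512). The interaction, which sets the sort difference of i.v. mice against that of i.c.v. mice, was 1.13 ± 0.17 (edgeR, adjusted p = 0.0206), with 1.91% of genes called (1.8% as higher and 0.112% as lower). Of the 6 oxidase genes Rac2 alone was called in either comparison. The i.v. and i.c.v. libraries did not overlap in CPM for 5 of the 6 genes in GFP+ cells and for 2 of the 6 in GFP- cells, beside 50.7% and 46.7% of all genes.

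Cells with markers of blood cell types moved with this result. Those with at least 3 markers of the neutrophil, monocyte, B cell, T or NK cell or dendritic cell lists numbered 72 and 51 (2.15 and 2.25%) in the i.v. GFP+ libraries and 0 and 0 in the i.c.v. GFP+ libraries, against 5 to 25 in GFP- libraries. Without them the route difference of Rac2 in GFP+ cells was 0.57 and the interaction 0.81, neither of them called (edgeR, adjusted p = 0.0552 and 0.0743). The summed level of 8 monocyte markers was 354 and 276 CPM in the i.v. GFP+ libraries and 32.0 and 102 CPM in the i.c.v. ones, where 5 and 4 of the markers were at 0. The summed level of 10 neutrophil markers was 1682 and 3320 CPM in the i.v. GFP+ libraries and 112 and 120 CPM in the i.c.v. ones, where 7 and 6 of the markers were at 0. With the GFP- levels given above (517 and 344 CPM after i.v., 6053 and 1190 CPM after i.c.v. dosing), these markers had the same crossed order of routes as Rac2. The 1 to 16 neutrophil-marked cells of the 6 treated libraries that had any held 540 to 1408 CPM of Rac2. In the i.v. GFP+ libraries (female, male) these cells gave 17 and 39 Rac2 UMIs. Monocyte-marked cells gave 79 and 20 (326 and 155 CPM), and dendritic cell-marked cells 127 and 93 (271 and 321 CPM). The whole libraries held 2301 and 1341 Rac2 UMIs. The part of these cells in the Rac2 levels was not tested beyond the fit without them. The call within GFP+ cells was also lost when either i.c.v. GFP+ library was dropped, the female's or the male's (adjusted p = 0.174 and 0.0903), each of which left 1 library in the arm, assumed to vary like the other groups. Thinned to 500 UMIs it was 0.69 (adjusted p = 0.429). The interaction lost its call when any of 5 libraries was dropped (GFP- i.v. female, GFP- i.v. male, GFP- i.c.v. female and both GFP+ i.c.v. libraries), with values of 1.06 to 1.16 and adjusted p of 0.0588 to 0.107. In GFP+ cells without border macrophage markers Rac2 stood at 158 and 162 CPM after i.v. and 83.7 and 84.2 CPM after i.c.v. dosing, and in cells with them at 108 and 96.3 against 92.4 and 90.5 CPM.

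The other 5 genes were not called between routes in GFP+ cells. Cybb gave 0.07 ± 0.28, Cyba 0.33 ± 0.16, Ncf1 -0.09 ± 0.17, Ncf4 0.53 ± 0.15 and Hvcn1 -0.21 ± 0.13 (edgeR, adjusted p between 0.139 and 0.935). A p that misses the threshold does not show equal levels, and for Ncf4 the i.v. libraries (92.5 and 73.8 CPM) lay above the i.c.v. ones (59.2 and 65.3 CPM). For Cybb the interaction was 1.46 ± 0.41 (edgeR, adjusted p = 0.113), and DESeq2 gave an adjusted p of 0.0033. Within routes, the sort difference of Cybb was 2.44 in i.v. mice (edgeR, adjusted p = 0.0012) and 0.99 in i.c.v. mice (adjusted p = 0.107), with 2 mice each. Rac2 (0.92), Cyba (0.75) and Ncf4 (0.67) were also called in i.v. mice alone (edgeR, adjusted p = 0.0087, 0.0245 and 0.035), and 0 of the 6 in i.c.v. mice alone. Over all genes 27.0% were called in i.v. mice alone, 14.7% as higher, and 8.69% in i.c.v. mice alone, 2.39% as higher.

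The naive libraries place these levels, with 1 library per population and so no test. Cybb in order ran from blood (1116 CPM, 95% Poisson interval 1076 to 1157) through the GFP+ libraries (666 to 802) to GFP- libraries (157 to 542), with naive microglia (230, interval 201 to 262) inside the GFP- range, and then to astrocytes and the neuron sort with 0 and 2 UMIs. The Cybb UMIs of naive microglia came from 46 of 1274 cells. At 500 UMIs, which left out 792 cells, 10 of 482 naive microglia (2.07%, 95% Clopper-Pearson interval 0.999 to 3.78%) held Cybb. That share was below the 4.93 to 17.2% of the GFP- libraries. At 1000 UMIs, which left out 1122 cells, 13 of 152 naive microglia held Cybb (8.55%, interval 4.63 to 14.2%). This share was inside the GFP- range of 7.51 to 26.0% at that depth. In CPM, naive microglia also lay inside the GFP- range for Cyba (862 CPM), Ncf1 (276 CPM) and Ncf4 (67.8 CPM). They lay above all 8 treated libraries for Rac2 (183 CPM, interval 157 to 212) and for Hvcn1 (109 CPM), though the Hvcn1 interval of 89.7 to 132 reached into the treated range. The naive microglia library also had the highest summed level of neutrophil markers of the 12 libraries (9238 CPM, 9 of the 10 markers detected) and 384 CPM of monocyte markers, while 1 of its cells carried 3 neutrophil markers. The neutrophil-marked cells of blood held 571 CPM of Rac2, and the part of such RNA in the naive microglial level was not tested. Naive microglia differ from the treated cells in age and depth as well as in treatment, which cannot be told apart.

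Blood stood above all treated libraries for Cybb, Cyba (1330 CPM), Ncf4 (132 CPM) and Rac2 (539 CPM), and below all of them for Ncf1 (158 CPM, interval 143 to 174, which reaches the GFP+ i.v. female) and Hvcn1 (41.4 CPM, interval 34.0 to 50.0). In astrocytes Cyba was present at 42.5 CPM (interval 36.8 to 48.7), while the other 5 genes had at most 1 UMI each. In the neuron sort the 6 genes together had 10 UMIs, 8 of them from Cyba.

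Within the naive blood library the genes fell to different cells, gated by at least 3 markers of a single list. Cybb was 1768 CPM in 75 cells with monocyte markers and 1325 CPM in 28 with neutrophil markers, against 328 CPM in 109 with B cell markers and 0 UMIs in 8 with T or NK cell markers. Cyba followed the same order, at 1606, 1531, 656 and 264 CPM. Ncf1 was 331 CPM in the neutrophil-marked cells (interval 222 to 476) and 196 CPM in the monocyte-marked ones (interval 164 to 232), which overlap. Hvcn1 was found mostly in B cell-marked cells, at 114 CPM (interval 91.2 to 140), with 7.35 CPM in monocyte-marked cells (interval 2.39 to 17.2). Rac2 was higher in the lymphoid than in the monocyte-marked cells. It was 731 CPM in B cell-marked cells (interval 672 to 795), 792 CPM in T or NK-marked cells (interval 507 to 1178) and 441 CPM in monocyte-marked cells (interval 393 to 494). Neutrophil-marked cells, at 571 CPM (interval 424 to 753), overlapped both lymphoid gates and also the monocyte gate. Ncf4 was 174, 149, 113 and 132 CPM in the same 4 gates as Cybb above. The intervals cover counting error only. The Cybb level of the neutrophil gate did not carry over to the treated libraries. There, cells of the same gate held 0 to 205 CPM of Cybb, on 0 to 10 UMIs a library.

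**Figure D5:**
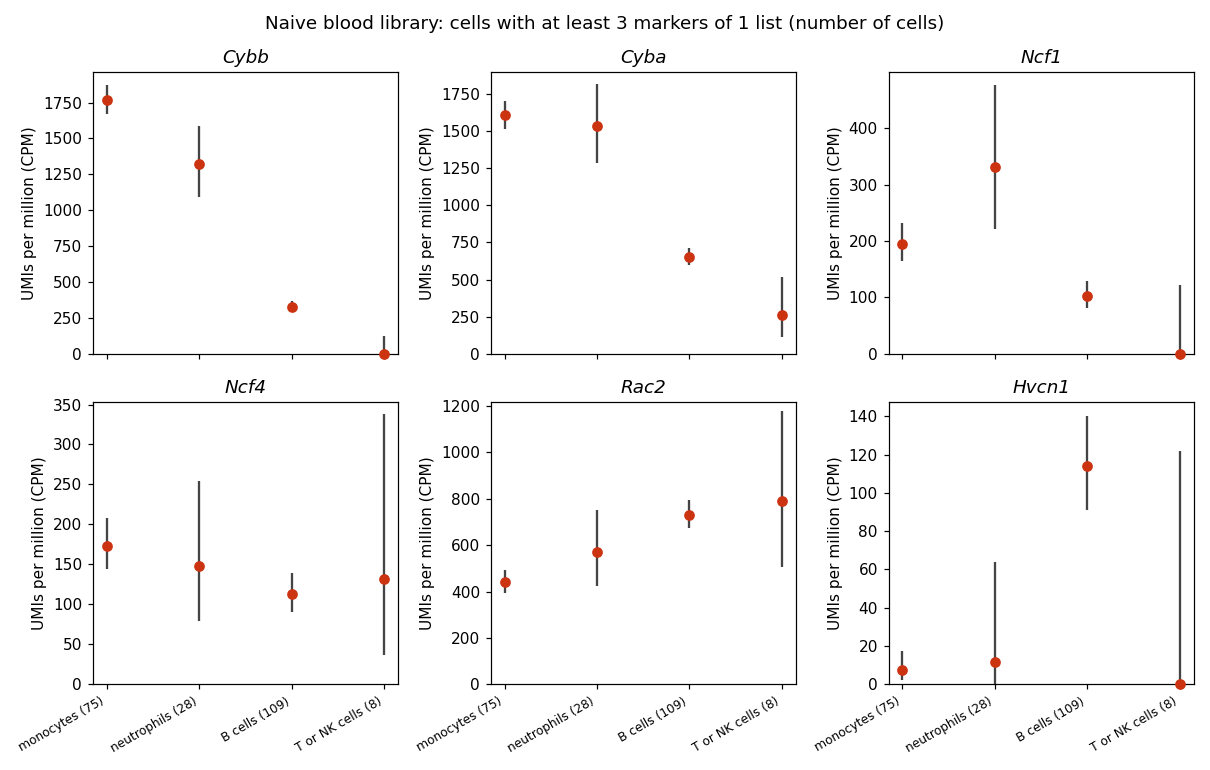
CPM of the 6 genes in cells of the naive blood library with at least 3 markers of 1 cell type list (number of cells in brackets), with exact 95% Poisson intervals. Cybb and Cyba are highest in monocyte- and neutrophil-marked cells, and Hvcn1 in B cell-marked cells at 114 CPM.

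Genes around the complex were read from 4 lists. Among other NADPH oxidase parts, Rac1, the widely expressed sister GTPase, gave -0.07, Rac3 0.35, Cybc1 (listed as BC017643, the chaperone of gp91phox) 0.31 and Noxo1 -0.46 between sorts, and 0 of these 4 were called (edgeR, adjusted p between 0.115 and 0.625; unadjusted p under 0.05 for Cybc1). With the mouse as a block, Rac3 (0.36) and Cybc1 (0.32) were called (edgeR, adjusted p = 0.033 and 0.0456). On plain library size Rac1 and Noxo1 were called as lower. Nox1, Nox3, Nox4, Noxa1, Duox1 and Duox2 were too low to test.

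Among 22 kinases, GTPases and exchange factors that act in assembly, 2 were called as higher and 8 as lower in GFP+ cells, where 15.4% and 15.3% of all genes were. The 2 calls as higher became 0 when any of 5 libraries was dropped (both i.v. GFP-, both i.v. GFP+ and the i.c.v. male's GFP-). The higher ones were Vav3, a Rac exchange factor (1.46, edgeR adjusted p = 0.0286), and Arhgdia, which holds Rac and related GTPases in the cytosol (0.39, adjusted p = 0.031). The lower ones were Prkca, a protein kinase C (66.8 CPM in GFP- and 14.5 CPM in GFP+ cells, -1.92, edgeR adjusted p = 0.0016), the Rac exchange factors Dock2 (-0.52) and Prex1 (-0.56), the phosphoinositide 3-kinase subunits Pik3cd (-0.57), Pik3cg (-0.44) and Pik3r5 (-0.85), the phospholipase Plcg2 (-0.47) and the p38 kinase Mapk14 (-0.27). The list's median was 0.01, beside 0.00085 over all genes tested. With the mouse as a block 0 were called as higher and 7 as lower, beside 1558 and 1600 of 12540 genes. Between routes in GFP+ cells, Tiam1 (a Rac exchange factor, 2.999) and Fgr (a Src-family kinase, 3.86) were called as higher after i.v. dosing (edgeR, adjusted p = 0.0089 and 0.01), both at mean levels of 6.29 to 10.03 CPM by sort. In this comparison 2.56% of all genes were called as higher. Naive blood held 60.4 CPM of Tiam1 and 169 CPM of Fgr. Cells with blood cell markers numbered 72 and 51 in the i.v. and 0 and 0 in the i.c.v. GFP+ libraries, and their part in these 2 genes was not tested.

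A further list held transcription factors known to bind the genes of the complex. Spi1, which encodes PU.1, stood at 363 and 344 CPM in GFP+ and GFP- cells (0.36, edgeR adjusted p = 0.0608), and Irf8 at 374 and 525 CPM (-0.22, adjusted p = 0.214).

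Genes that dispose of superoxide and peroxide were the list with the most calls in 1 direction in the main fit between sorts. Of 23 tested, 10 were called as higher (15.4% of all genes were) and 0 as lower, with a list median of 0.50. They were the mitochondrial superoxide dismutase Sod2 (0.50), catalase Cat (0.50), the glutathione peroxidases Gpx1 (0.79) and Gpx4 (0.64), the peroxiredoxins Prdx1 (0.81), Prdx3 (0.38), Prdx5 (0.96) and Prdx6 (0.91), thioredoxin Txn1 (0.99) and Gclm, of glutathione synthesis (0.43), with edgeR adjusted p between 0.0059 and 0.049. On plain library size 3 were called as higher and 1 as lower (763 and 3891 of 12540 genes were) with a list median of 0.22, which against the shift of -0.28 over all genes keeps the offset. With cells thinned to 500 UMIs 1 of 22 tested was called as higher, beside 592 of 10160 genes, so the list did not stand out there. Without cells with border macrophage markers 3 of 22 were, beside 1040 of 12104 genes. Leaving out 1 library gave 3 to 13 called as higher. The count was 3 without the GFP- library of the i.v. male or of the i.c.v. male, 4 without either i.v. GFP+ library, and 6 without the i.v. female's GFP- or the i.c.v. male's GFP+ library. In i.v. mice alone 9 of 22 were called as higher and 1 as lower, beside 14.7% of all genes as higher. In i.c.v. mice alone 0 of 23 were called, beside 8.69% of all genes, 2.39% as higher. Neither the list's direction nor its count was tested against other lists.

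The genes whose TMM-scaled levels ran most like each member over the 8 treated libraries were found by Pearson's r, as a description of libraries that share sorts, mice and depth. For Cybb these were Msr1, a scavenger receptor (r = 0.996), Axl, a receptor for dying cells (0.994), and Mdfic (0.994). For Cyba they were Cox6a1, Vamp8 and Polr2c (0.991 to 0.992), for Ncf1 Dusp8, Mapre1 and Mob3c (0.982 to 0.989) and for Ncf4 Snx1, H2-T23 and Tgtp2 (0.986 to 0.990). Rac2 ran most like Rasgrp2, Tespa1 and Slc25a24 (0.978 to 0.990, all at mean levels of 1.505 to 3.36 CPM). Hvcn1 had the loosest neighbours, Serinc3, Maea and Fam3a (0.923 to 0.962).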

How the data were processed

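Single-cell RNA was captured with 10x Genomics 3′ chemistry in 12 mouse libraries. The deposited matrices hold raw UMI counts per gene and barcode that the authors made with Cell Ranger (version 3.1.0 per the file headers, build mm10). The naive matrices hold 2500 barcodes each and the treated ones 2683 to 5056. A barcode entered the analysis with 200 or more genes and no more than 10% mitochondrial UMIs, and counts were summed per library. No doublet caller was run, so doublets remain. The sums of the 8 treated libraries were tested with edgeR 4.0.16 in R 4.3.3 (quasi-likelihood test, TMM factors, filterByExpr, Benjamini-Hochberg adjustment over all 12540 genes tested, threshold 0.05), after the code had been tested on simulated data. Routes were compared in a 4-group fit with 2 libraries each, which share 1 estimate of the spread. Replicates are separate mice, 1 for each sex and route. DESeq2 1.42.0 was an alternative. The SE of an edgeR difference was derived from the test, as the size of the difference divided by the square root of its F statistic. CPM divides by all UMIs of the kept cells, without TMM.

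Shares of cells with a UMI were taken after thinning every cell to 500 UMIs (seed 1), with exact permutation tests in scipy 1.17.1. All exact permutation tests, also those of composition and ratios, left out the pairing by mouse, and no paired version was run. Intervals are exact 95% Poisson or Clopper-Pearson intervals, floors are 3 counts, and both cover counting error only. The oxidase genes and all lists were chosen with earlier results of these data known. The rule for names took the 6 genes throughout, the called genes of each list and up to 6 others by mean level, and the 3 genes most like each member. Results for some genes of the lists are not reported here, nor are the counts and medians of the lists of other oxidase parts and of transcription factors. Leaving out cells with border macrophage markers, scaling by library size alone, the composition without Cybb, the transcript ratios and the split by markers were added after seeing the data. Both libraries of a mouse share its number in the labels, so the numbers pair the samples by animal. The correlations of their deviations from the sort means were -0.31 and 0.04 in the i.c.v. and 0.22 and -0.25 in the i.v. mice. Promoter sequences came from RefSeq on GRCm38.p6, and gene positions from GRCm38.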

Additional observations from a re-analysis of the deposited data

Results flagged for a closer look

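The sort difference of Rac2 differed between routes in the interaction test, a call lost under 7 of 19 alternatives. It was 1.13 on the log2 scale larger in the i.v. than in the i.c.v. mice (edgeR, adjusted p = 0.0206), with GFP+ above GFP- in both i.v. mice and below in both i.c.v. mice. In CPM the ratio of GFP+ to GFP- was 1.47 and 1.43 in the i.v. female and male and 0.746 and 0.802 in the i.c.v. female and male. Over the 19 alternatives the value ran from 0.81 to 1.60, and 12 of them kept the call. It was 0.81 and not called without cells that carried blood cell markers (edgeR, adjusted p = 0.0743), which numbered 72 and 51 in the i.v. and 0 and 0 in the i.c.v. GFP+ libraries, and dropping any of 5 of the 8 libraries also lost the call. None of 36 sets of 4 libraries (Cybb to Hvcn1 by level, share and composition) held a library far from the others by Dixon's criterion, where chance alone would give about 1 in 20. The sets reuse the same libraries, and 4 values give the criterion little power. The lack of flags therefore does not show that the libraries were alike. GFP- Cybb levels of 157, 186, 542 and 286 CPM, for example, were not flagged.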

How the results depend on the processing

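The smallest groups hold 2 libraries, so calls between routes rest on single mice, and at 842 to 3499 median UMIs per cell a share of cells with Ncf4, Rac2 or Hvcn1 is set by depth. Cybb stayed above the threshold between sorts in 20 of 21 alternatives (0.99 to 2.44 on the log2 scale), Cyba in 16. The causes of the changes below were not tested. Between sorts 3853 genes and 2 oxidase genes were called. With cells thinned to 500 UMIs these were 1347 and 1, without border macrophage-marked cells 2153 and 1, in i.c.v. mice alone 1031 and 0, and in i.v. mice alone 4 oxidase genes. Leaving out 1 library gave 2117 to 3744 genes and 1 to 3 oxidase genes, the fewest when the i.v. male's GFP- library was dropped. Between routes in GFP+ cells 348 genes and 1 oxidase gene were called, against 190 and 0 without cells of other marker lists, 86 and 0 thinned, 1126 and 2 without border macrophage-marked cells, 526 genes by DESeq2, 679 with no filter on low counts, and 42 to 293 genes and 0 to 1 oxidase gene when 1 library was left out. Between routes in GFP- cells 0 were called, against 3 genes thinned, 70 genes and 1 oxidase gene by DESeq2, 83 and 1 with no filter, and 0 to 23 genes and 0 to 1 oxidase gene when 1 library was left out. For the interaction (240 genes, 1 oxidase gene) the counts were 142 genes with the stricter barcode filter, 61 and 0 without cells of other marker lists, 74 and 0 thinned, 737 genes without border macrophage-marked cells, 598 and 2 by DESeq2, 698 and 2 with no filter, 412 genes with sex as a covariate, and 41 to 239 genes and 0 to 2 oxidase genes when 1 library was left out.

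With the mouse as a replicate block the interaction called 678 genes. The block changed no call of an oxidase gene between sorts (Cybb 1.77, Cyba 0.54) or in the interaction (Rac2 1.13). The composition difference of Cybb over all barcodes was 16.2 percentage points (exact permutation p = 0.0571).

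Values that turned direction were not called in the main test. Between sorts these were Rac2 thinned (-0.050) and in i.c.v. mice alone (-0.21), and Hvcn1 thinned (-0.34), without border macrophage-marked cells (-0.12), on library size alone (-0.24) and in i.v. mice alone (-0.063). Between routes in GFP+ cells Cybb turned when thinned (-0.11) and on library size alone (-0.040). In GFP- cells library size alone turned Cyba (0.0070), Ncf1 (0.073), Ncf4 (0.075) and Hvcn1 (0.081), upper-quartile scaling turned Ncf4 (0.00049) and Hvcn1 (0.0046), and Ncf4 also turned without cells of other marker lists (0.058) and thinned (0.30). In the interaction Ncf1 turned when thinned (0.044). Leaving out 1 library, the range crossed 0 between sorts for Hvcn1 (-0.018 to 0.094), in GFP+ cells for Cybb (-0.091 to 0.24) and Ncf1 (-0.23 to 0.040), in GFP- cells for Cyba (-0.25 to 0.0094), Hvcn1 (-0.18 to 0.079), Ncf1 (-0.27 to 0.15) and Ncf4 (-0.16 to 0.070), and in the interaction for Ncf1 (-0.22 to 0.20). Shares of cells, as GFP+ minus GFP- percentage points, turned for Cyba at 1000 UMIs (10.1) and at own depth (8.51), for Rac2 at 1000 UMIs (0.647) and own depth (11.5), and at own depth for Ncf1 (7.97) and Hvcn1 (7.22). Leaving out 1 library moved them between -2.88 and 1.74 for Cyba and between -0.624 and 0.0227 for Rac2.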
